A study of Mus musculus with 6 samples.

Results

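The genes described here belong to the Bcl2 family, whose products decide whether the outer mitochondrial membrane stays intact. There were 10 of them, named by symbol: the anti-apoptotic guardians Bcl2, Bcl2l1, Mcl1, Bcl2a1a, Bcl2a1b and Bcl2a1d, the pro-apoptotic BH3-only genes Bmf, Bid and Bik, and the pore-forming effector Bak1. They were followed in ATAC-seq data through their member peaks, which are all peaks whose nearest transcription start site (TSS), as the deposited annotation gives it, belonged to a named gene and lay within 100000 bp. The rule found 117 of the 175929 peaks, and it used no measured value. Mcl1 held 30 of them, Bid 20, Bmf and Bcl2l1 18 each, Bcl2 15, Bik 12 and Bak1 4. Bcl2a1a, Bcl2a1b and Bcl2a1d held 0. Peaks with a closer start site of another gene are not members: 69 peaks lay within 100000 bp of the Mcl1 start, for example, and 109 within that distance of the Bik start.

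ATAC-seq, in which a transposase cuts open chromatin and leaves sequencing adapters there, was performed on mouse leukaemia cells that express AE9a, a short form of the AML1-ETO fusion protein. All 6 libraries came from GFP+ Lin- c-Kit+ splenocytes of recipient mice carrying Usp18+/f UBCER-Cre AE9a leukaemia, sorted 3 days after the first injection. After the recipients fell ill they were given oil (replicates 1, 2 and 4) or tamoxifen (replicates 1, 3 and 4), and tamoxifen lets the Cre recombinase delete the floxed allele of Usp18, leaving the wild-type allele. Usp18 encodes a protease that restrains interferon signalling. The labels give neither the age nor the strain of the mice, nor whether each library came from its own mouse, so p-values here measure the spread between libraries. The Cre is driven by the ubiquitin C promoter and is not confined to a cell type. The paper gives wild-type mice as recipients, so the transplanted cells carried the Cre and the recipients' own cells did not. Only the tamoxifen group received tamoxifen, so the drug and the loss of the Usp18 allele cannot be told apart in this comparison.

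Guardian proteins such as BCL2, BCL-XL (from Bcl2l1), MCL1 and A1 (from the Bcl2a1 genes) hold the pore-forming proteins BAX and BAK in check. BH3-only proteins are made or activated under stress. They bind the guardians or act on the effectors directly, after which cytochrome c leaves the mitochondrion and caspases are activated. Myeloid cells depend strongly on MCL1, and A1 is an NF-kB target of myeloid and lymphoid cells. ATAC-seq measures how open the DNA at these genes is. It does not measure their RNA or protein.

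Total tags per library ran from 57358372 to 74667822 and tags in peaks from 17498116 to 21085920, and the members held 11930.5 to 14797 tags. Tamoxifen replicate 4 stood apart from the other tamoxifen libraries: the chi-square per degree of freedom over peaks was 2.66 and 2.68 against them, 1.48 between the other two, and 1.03 to 1.22 among the oil libraries. Where it lay apart from the other tamoxifen libraries at a peak of small p, the value without it is given as well. Of the 6 progenitor marker genes (Kit, Cd34, Myb, Mpo, Spi1 and Runx1) all had peaks, with summed levels of 27590.4 to 28618 normalised tags after oil and 29155 to 32178 after tamoxifen over 323 peaks. The sums for T-cell markers (7 of 7 genes with a peak) were 1096 to 1245 after oil and 1283 to 1413 after tamoxifen. Those for erythroid markers (8 of 8 genes) were 11539 to 11849 and 10542 to 10941, and those for mature myeloid markers (8 of 8 genes) 3438 to 3549 and 3637 to 3809. B-cell markers overlapped, at 2031 to 2106 and 2049 to 2263, with no peak at Ms4a1. The marker sums other than those of B cells thus separated the groups, and their part in the results below was not tested. In such bulk samples fewer cells of a type and less open chromatin per cell cannot be told apart. At Usp18 itself, 15 peaks summed to 1773 ± 14.8 and 1738 ± 46.3 normalised tags (SD, n = 3 each; gene-level DESeq2 adjusted p = 0.887), which does not measure how much of the allele was deleted.

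To examine whether chromatin at the survival genes opened or closed after tamoxifen, tags were tested over all peaks with DESeq2 (two-sided Wald test, Benjamini-Hochberg adjustment over all 175929 peaks). None of the 117 member peaks passed an adjusted p of 0.05 (0 of 117, background 1.39% of all peaks), and so none was called at over 2-fold (background 0.654%). The smallest adjusted p was 0.155. At an unadjusted p under 0.05 there were 8 member peaks, 6.84% against a background of 9.02%. Of these, 3 were higher after tamoxifen (2.56%, background 6.18%) and 5 were lower (4.27%, background 2.84%). The edgeR quasi-likelihood test passed 1 member peak (background 2.92%), at the Bcl2 TSS, and gave 13 of 117 at an unadjusted p under 0.05 (background 17.6%).

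Differences at most members were small, and most 95% intervals bounded them within 2-fold. The median log2 fold change was -0.037 over the members and -0.0013 over all peaks, and the quartiles of the members were -0.18 and 0.061. At 104 of the 117 peaks (88.9%) the 95% interval of the change lay wholly within 2-fold in either direction, against 75.7% of all peaks. Member peaks held more tags than the typical peak, with a median of 65.4 normalised tags against 50.5, which narrows such intervals. The 3 tamoxifen values lay above all 3 oil values at 5 member peaks (4.27%, background 11.8%) and below them at 10 (8.55%, background 9.99%).

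Position divided these counts. Of the 79 member peaks more than 3000 bp from a TSS, 0 had all tamoxifen values above the oil values (background 13.5% of distal peaks) and 8 had all of them below (10.1%, background 9.53%). Among the 38 peaks closer to a TSS the counts were 5 above (13.2%, background 8.07%) and 2 below (5.26%, background 11.0%). All 5 of the lower peaks at an unadjusted p under 0.05 were distal (6.33% of the 79, background 2.95% of distal peaks). They included 3 peaks of Bcl2l1. Of the 3 higher peaks, 2 were close to a TSS (5.26% of the 38, background 3.84% of such peaks). The other higher peak was distal (1.27%, background 7.21%). All 8 peaks at an unadjusted p under 0.05 kept their direction in each fit without a library. Of them, 7 stayed under 0.05 without tamoxifen replicate 4 and 3 in each fit that left out another library, and that replicate was the tamoxifen library nearest to the oil mean at 7 of the 8. Member peaks passing numbered 2 without tamoxifen replicate 4 (1 higher, 1 lower, background 3.71%) and 0 without any other library. In the plot of fold changes by gene, each gene had peaks on both sides of 0. Most lay below 0 for Bcl2l1, Bmf, Bid, Bik and Bak1, and most lay above it for Bcl2 and Mcl1.

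**Figure D1:**
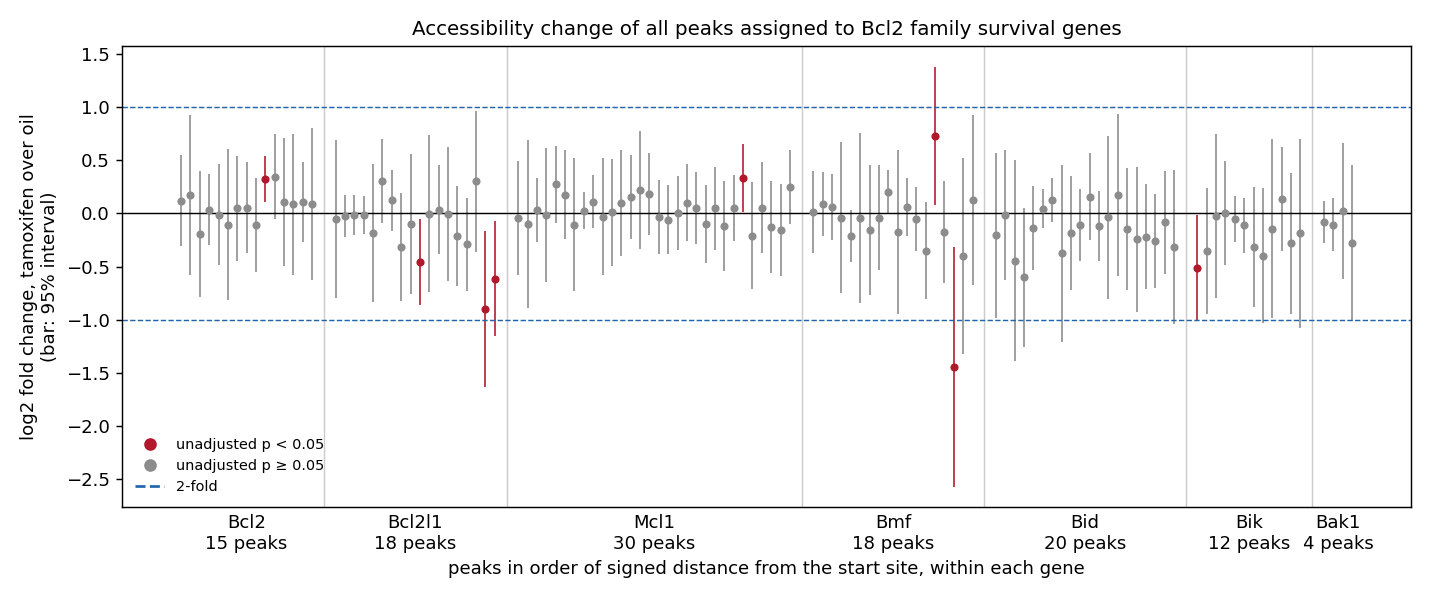
Log2 fold change (tamoxifen over oil, vertical axis) of each of the 117 member peaks, grouped by gene and ordered by signed distance from the start site, with 95% intervals as bars and dashed lines at 2-fold. The 8 red points have an unadjusted p under 0.05, none passed the adjusted threshold, and the 2 points furthest from 0 belong to Bmf (-1.44) and Bcl2l1 (-0.90).

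Among the guardians, Bcl2 gave the smallest p of all members. Its TSS peak (mm10 chr1:106714271-106714539, centred -115 bp from the start site, promoter) held 319.9, 310.1 and 332 normalised tags after oil (replicates 1, 2 and 4) and 433, 410.0 and 361 after tamoxifen (replicates 1, 3 and 4). Every tamoxifen library lay above every oil library, and tamoxifen replicate 4 was the nearest to the oil group. The means were 320.5 ± 10.7 and 401 ± 36.6 normalised tags (SD, n = 3 each), a 1.25-fold difference (log2 fold change 0.32, SE 0.11, DESeq2 adjusted p = 0.155, 95% interval 0.10 to 0.54). The peak passed the edgeR test (adjusted p = 0.0305) and a DESeq2 fit of promoter-proximal peaks alone (adjusted p = 0.0278, background 1.34%). Without tamoxifen replicate 4 it passed DESeq2 as well (log2 fold change 0.40, adjusted p = 0.0199, background 3.71%), and leaving out a library otherwise raised the adjusted p to as much as 0.784. Its central 200 bp are shown because this is the member that came nearest to a call. They have a GC content of 71% with 26 CpG dinucleotides, and capitals mark the only motif found by the search described below, ACAGGAA, the letters searched for ETS factors.
Bcl2 at -115 bp (chr1:106714305-106714504, minus strand): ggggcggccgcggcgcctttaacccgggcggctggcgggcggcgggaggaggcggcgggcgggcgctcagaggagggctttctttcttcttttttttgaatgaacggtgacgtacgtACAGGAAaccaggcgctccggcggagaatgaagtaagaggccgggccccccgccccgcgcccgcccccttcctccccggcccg

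At the rest of the Bcl2 locus no peak passed. An exonic peak, 1776 bp past the start site, held 83.8, 79.0 and 73.5 normalised tags after oil and 103, 107 and 89.4 after tamoxifen, again without overlap (log2 fold change 0.34, SE 0.20, DESeq2 adjusted p = 0.680). Of the 15 Bcl2 peaks 11 had a fold change above 0 and 4 below (26.7%, all peaks 50.3%). Their median log2 value was 0.086, with a range of -0.20 to 0.34. At all 15 the 95% interval lay within 2-fold, as it did at 75.7% of all peaks. The strongest intronic peak, at 55679 bp, far inside the gene, held 159, 125 and 189 normalised tags after oil and 151, 138 and 219.8 after tamoxifen. The groups overlapped there, and replicate 4 was the highest library of each group.

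At Bcl2l1, which encodes BCL-XL, the groups overlapped at the promoter. By contrast, 3 of its 18 peaks, all intronic, had fewer tags after tamoxifen at an unadjusted p under 0.05 (16.7%, background 2.84%). The peak over the upstream start site (chr2:152831625-152831830) held 483, 466 and 425 normalised tags after oil and 461, 467 and 421 after tamoxifen. Its neighbour at 283 bp held 708, 692 and 646 normalised tags after oil and 692, 713 and 620.1 after tamoxifen, and the peak over an alternative start site (chr2:152830589-152830810) held 580.2, 588 and 509 normalised tags after oil and 578, 564 and 519.6 after tamoxifen. The groups overlapped at all 3, with log2 fold changes of -0.026, -0.015 and -0.013 and 95% intervals no wider than -0.22 to 0.17.

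All 3 lay in the last intron. At 14063 bp (chr2:152814295-152814558, over a MIRc repeat) the libraries held 94.9, 109 and 96.8 normalised tags after oil and 71.5, 69.1 and 78.2 after tamoxifen. At 34776 bp (chr2:152793500-152793926) they held 61.8, 57.5 and 60.9 normalised tags after oil and 43.5, 29.0 and 44.7 after tamoxifen. At both peaks every tamoxifen library was below every oil library, with log2 fold changes of -0.46 (SE 0.21, DESeq2 adjusted p = 0.420) and -0.61 (SE 0.28, DESeq2 adjusted p = 0.423). Between them and close to the latter, the peak at 34140 bp (chr2:152794172-152794527) held 35.3, 52.7 and 52.0 normalised tags after oil and 11.6, 24.5 and 39.1 after tamoxifen. Here tamoxifen replicate 4 lay inside the oil range and the groups overlapped (log2 fold change -0.90, SE 0.37, DESeq2 adjusted p = 0.338). Without that library the log2 fold change was -1.39 and the DESeq2 adjusted p 0.0239, so that this was the only other member peak to pass in that fit. Of the 18 peaks 14 (77.8%, all peaks 50.3%) had a fold change below 0 (median log2 value -0.041, range -0.90 to 0.30), and 3 were lower without overlap (16.7%, background 9.99%).

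The central 200 bp of these 3 intronic peaks are shown since Bcl2l1 is the only member gene with several peaks of the same sign at an unadjusted p under 0.05. They are written on the strand of the gene, which is the minus strand. Capitals mark AGATAA, the GATA motif, and a stretch that reads GAANNTTC, the heat shock element.
Bcl2l1 at 14063 bp (chr2:152814326-152814525, minus strand): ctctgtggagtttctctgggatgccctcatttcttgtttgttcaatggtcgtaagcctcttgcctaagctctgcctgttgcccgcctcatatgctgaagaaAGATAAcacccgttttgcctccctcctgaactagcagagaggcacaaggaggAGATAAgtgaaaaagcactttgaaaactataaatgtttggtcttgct
Bcl2l1 at 34140 bp (chr2:152794249-152794448, minus strand): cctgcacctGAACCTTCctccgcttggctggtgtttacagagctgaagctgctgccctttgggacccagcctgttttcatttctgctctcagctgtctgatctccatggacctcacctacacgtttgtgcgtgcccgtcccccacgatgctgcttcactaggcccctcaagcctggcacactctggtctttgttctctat
Bcl2l1 at 34776 bp (chr2:152793613-152793812, minus strand): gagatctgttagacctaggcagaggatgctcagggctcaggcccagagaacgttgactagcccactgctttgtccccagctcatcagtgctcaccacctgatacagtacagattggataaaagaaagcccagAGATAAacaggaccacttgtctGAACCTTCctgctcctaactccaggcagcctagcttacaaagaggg

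**Figure D2:**
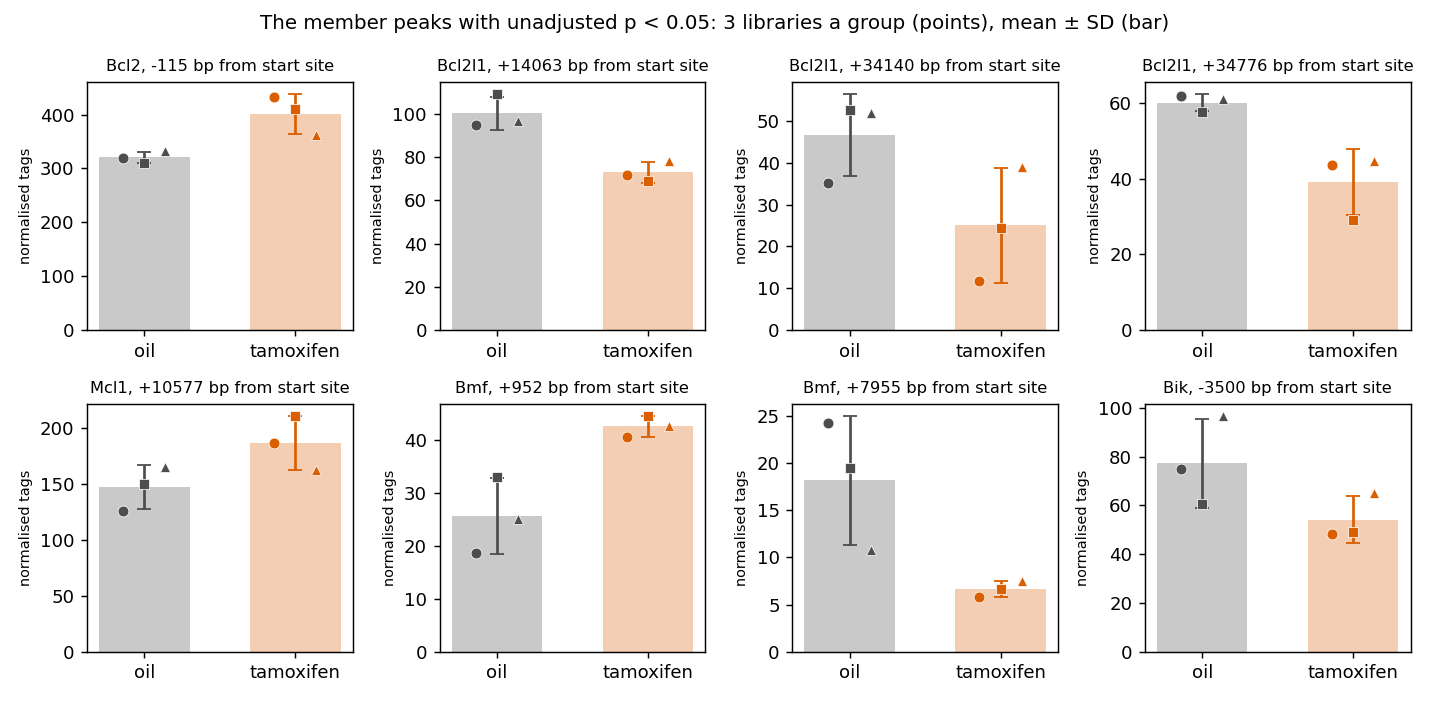
Normalised tags (vertical axis, from 0) of the 8 member peaks with an unadjusted p under 0.05, with 1 point per library (circles are replicate 1, squares oil 2 or tamoxifen 3, triangles replicate 4), bars at the group mean and error bars of 1 SD over n = 3. Groups do not overlap at 5 of the panels, and tamoxifen replicate 4 is the tamoxifen library nearest to the oil mean in 7 of the 8.

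Mcl1, the guardian with a short-lived protein, had the most peaks of the 7 genes. Its TSS peak (chr3:95658647-95658849) held 697, 665 and 643 normalised tags after oil and 655, 747 and 641 after tamoxifen. The groups overlapped (log2 fold change 0.025, SE 0.090, DESeq2 adjusted p = 0.992), and the 95% interval of -0.15 to 0.20 is narrow beside 2-fold. The first intron peak at 833 bp held 218, 232 and 237 normalised tags after oil and 234, 264 and 247 after tamoxifen, with a log2 fold change of 0.11. The strongest upstream peak, at -13223 bp, held 174, 162 and 174 normalised tags after oil and 151, 183 and 188 after tamoxifen, with a log2 fold change of 0.032. None of the 30 peaks separated the groups in either direction (background 11.8% higher and 9.99% lower). At all 30 the 95% interval lay within 2-fold, as it did at 75.7% of all peaks. The Mcl1 peaks had a median of 98.7 normalised tags against 50.5 over all peaks, which narrows such intervals.

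Peaks continued past the end of Mcl1. Beyond the annotated gene end, 15 peaks covered 6041 of 9464 bp (63.8%), from chr3:95663471-95672934, with gaps of at most 917 bp. Their oil means lay between 57.4 and 151 normalised tags and their log2 fold changes between -0.21 and 0.34, with a median of 0.0058. The highest of those changes belonged to the peak at 10577 bp (chr3:95669029-95669568), which held 126, 150.2 and 165 normalised tags after oil and 187, 211 and 162 after tamoxifen. The lowest tamoxifen value there fell just below the highest oil value, and the peak did not pass (log2 fold change 0.34, SE 0.16, DESeq2 adjusted p = 0.504). That lowest value was tamoxifen replicate 4, and without it the log2 fold change was 0.43 (DESeq2 adjusted p = 0.168). Its central 200 bp are shown as the only stretch of the Mcl1 locus with an unadjusted p under 0.05 (1 of 30 peaks, background 9.02%). They hold a run of repeated gt dinucleotides and none of the motifs searched, so they carry no capitals.
Mcl1 at 10577 bp (chr3:95669198-95669397, plus strand): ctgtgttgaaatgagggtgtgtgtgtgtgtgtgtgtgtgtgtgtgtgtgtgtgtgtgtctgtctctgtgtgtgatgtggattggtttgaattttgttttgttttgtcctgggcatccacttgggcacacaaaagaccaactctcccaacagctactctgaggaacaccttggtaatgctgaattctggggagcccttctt

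**Figure D3:**
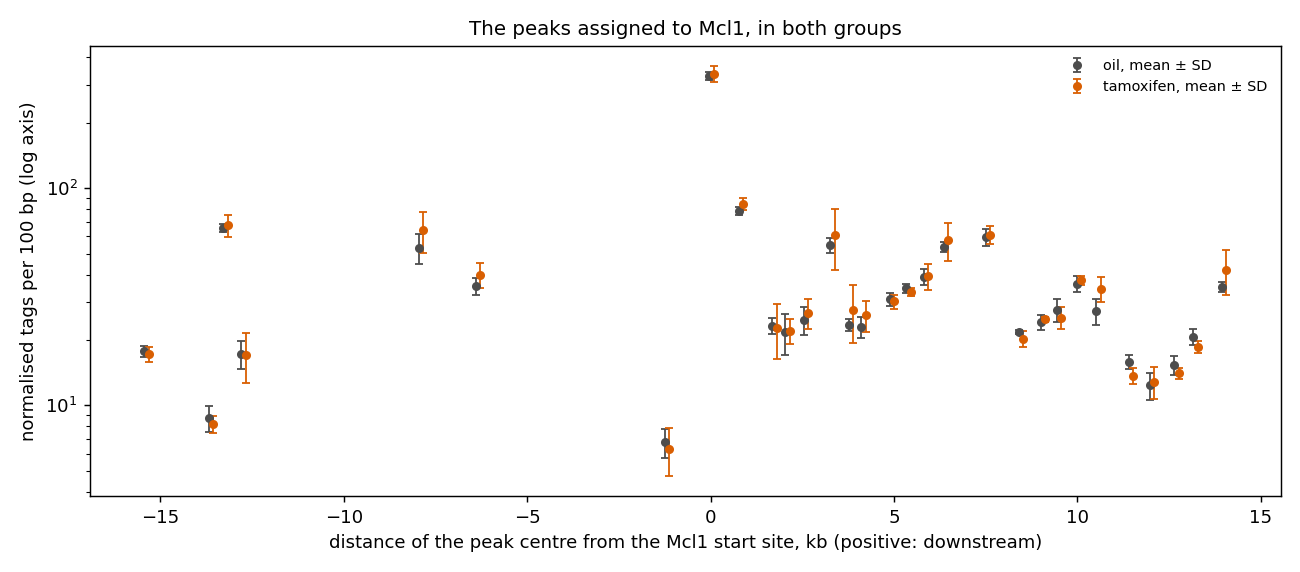
Normalised tags per 100 bp (vertical axis, log scale) of the 30 peaks assigned to Mcl1 against the distance of the peak centre from its start site in kb, as group means with error bars of 1 SD over n = 3. The 2 groups follow each other along the locus, from the TSS peak at 329 (oil) and 335 (tamoxifen) to the lowest peak at 6.76 and 6.29.

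The 3 A1 genes gave no member peak, and therefore no value. Bcl2a1a (chr9:88956900-88962419), Bcl2a1b (chr9:89199209-89207827) and Bcl2a1d (chr9:88723285-88731914) lie on chromosome 9 in the reference annotation, and 0 peaks of the table overlapped any of them. The peaks nearest to their start sites were 11580 bp away for Bcl2a1d (assigned to Mthfsl), 11427 bp for Bcl2a1b (assigned to Mthfs) and 97908 bp for Bcl2a1a (assigned to 9330159M07Rik). None of these 3 peaks is a member. The peak nearest Bcl2a1d held 84.7 ± 6.32 normalised tags with oil and 93.6 ± 6.14 with tamoxifen (SD, n = 3 each, log2 fold change 0.15, DESeq2 adjusted p = 0.951). That nearest Bcl2a1b held 78.2 ± 3.83 and 78.5 ± 5.35 (log2 fold change 0.0021, DESeq2 adjusted p = 0.9998). The distant peak nearest Bcl2a1a held 337 ± 14.5 and 437 ± 7.64 (log2 fold change 0.37, DESeq2 adjusted p = 0.0309) and passed (background 1.39% of all peaks). The copies are nearly identical over the aligned bases of their promoters, the only part compared. Bases without a partner are not counted in the values that follow. Over the promoter sequences of RefSeq (GRCm38.p6), 254 of 256 aligned bases were the same in Bcl2a1a and Bcl2a1b (99.2%), 288 of 294 in Bcl2a1a and Bcl2a1d (98.0%) and 247 of 250 in Bcl2a1b and Bcl2a1d (98.8%). The stretch upstream of the genes is shown to make this visible. Capitals mark the 6 bases of Bcl2a1a and Bcl2a1b that have no partner in Bcl2a1d, in 1 of the placements an alignment allows, and all other bases are shared.
Bcl2a1a (chr9:88956750-88956855, plus strand): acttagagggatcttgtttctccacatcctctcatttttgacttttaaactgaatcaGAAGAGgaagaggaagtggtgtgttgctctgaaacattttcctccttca
Bcl2a1b (chr9:89199059-89199164, plus strand): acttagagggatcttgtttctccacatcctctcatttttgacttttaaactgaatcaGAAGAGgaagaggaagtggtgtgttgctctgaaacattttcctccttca
Bcl2a1d (chr9:88731915-88732014, minus strand): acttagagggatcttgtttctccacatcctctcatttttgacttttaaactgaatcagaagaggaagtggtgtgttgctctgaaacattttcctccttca
The authors state default parameters for the mapping and do not describe how reads that match several copies were counted. The part of that in the absence of peaks was not tested. The related gene Bcl2a1c, which is not a member, had 3 peaks whose sums were 89.5, 86.4 and 102 normalised tags after oil and 96.2, 101 and 88.7 after tamoxifen.

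Among the BH3-only genes, Bmf, whose product is set free by loss of attachment and by stress on the cytoskeleton, had peaks on both sides of 0 within its gene. The peak over its upstream start site (chr2:118549603-118549929) held 400.4, 409.6 and 406 normalised tags after oil and 464, 517 and 417 after tamoxifen. All tamoxifen libraries lay above the oil libraries there (log2 fold change 0.20, SE 0.11, DESeq2 adjusted p = 0.595). The peak nearest to any annotated Bmf start, at -11 bp from an internal one, was weak, with 24.3, 24.4 and 23.3 normalised tags after oil and 17.4, 20.1 and 26.1 after tamoxifen (log2 fold change -0.18, SE 0.39, DESeq2 adjusted p = 0.980). By contrast, the intronic peak at -1333 bp from an internal start held 309, 276 and 287 normalised tags after oil and 227, 258 and 264 after tamoxifen, and all its tamoxifen values lay below the oil values (log2 fold change -0.22, SE 0.12, DESeq2 adjusted p = 0.662).

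The 2 Bmf peaks with an unadjusted p under 0.05 (11.1%, background 9.02%) were weak and of opposite sign. At 952 bp (chr2:118546539-118546755) the libraries held 18.8, 33.2 and 25.1 normalised tags after oil and 40.6, 44.6 and 42.8 after tamoxifen, higher in each tamoxifen library (log2 fold change 0.73, SE 0.33, DESeq2 adjusted p = 0.440). At 7955 bp (chr2:118536530-118536735, intron) they held 24.3, 19.5 and 10.8 normalised tags after oil and 5.80, 6.69 and 7.45 after tamoxifen, lower in each. That peak had the largest fold change among the 117 (log2 fold change -1.44, SE 0.57, DESeq2 adjusted p = 0.290, 95% interval -2.57 to -0.31), on no more than 24.3 normalised tags in any library. Of the 18 Bmf peaks 7 had a fold change above 0 and 11 below (all peaks 50.3% below, median log2 value -0.044), and 2 were higher (background 11.8%) and 3 lower (background 9.99%) without overlap. Both sequences are shown because they differed in sign within the same gene. They are on the minus strand, 31 exonic bases of the window are left out of the former, and its capitals mark an NF-kB motif.
Bmf at 952 bp (chr2:118546547-118546715, minus strand): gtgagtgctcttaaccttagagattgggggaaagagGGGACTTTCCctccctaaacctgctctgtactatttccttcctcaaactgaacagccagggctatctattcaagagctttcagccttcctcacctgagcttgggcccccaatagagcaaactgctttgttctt
Bmf at 7955 bp (chr2:118536532-118536731, minus strand): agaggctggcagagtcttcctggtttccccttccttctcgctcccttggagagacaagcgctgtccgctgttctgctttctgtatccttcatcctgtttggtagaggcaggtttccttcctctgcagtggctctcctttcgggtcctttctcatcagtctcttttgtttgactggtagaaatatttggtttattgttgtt

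Bid, which caspase-8 cleaves to link death receptors to mitochondria, had overlapping groups at its promoter. Its TSS peak (chr6:120916716-120916967) held 622, 608 and 541 normalised tags after oil and 613, 628 and 585 after tamoxifen (log2 fold change 0.044, SE 0.092, DESeq2 adjusted p = 0.978, 95% interval -0.14 to 0.22). The first intron peak at 1406 bp held 338, 357 and 358 normalised tags after oil and 395, 386 and 367 after tamoxifen, higher in each tamoxifen library by a small margin (log2 fold change 0.12, SE 0.11, DESeq2 adjusted p = 0.863). The smallest unadjusted p of the gene belonged to an intergenic peak at -8244 bp, with 54.1, 41.9 and 35.8 normalised tags after oil and 21.3, 26.7 and 38.2 after tamoxifen, where tamoxifen replicate 4 lay inside the oil range (log2 fold change -0.60, SE 0.33, DESeq2 adjusted p = 0.628). Leaving it out gave a log2 fold change of -0.87 (DESeq2 adjusted p = 0.224). Across its 20 peaks 16 (80%, all peaks 50.3%) had a fold change below 0, with a median log2 value of -0.14 and a range of -0.60 to 0.17. An unadjusted p under 0.05 was reached at 0 of the 20 (background 9.02%). The Bid start site lies 329053 bp from that of Usp18 on the same chromosome.

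Bik, a BH3-only protein of the endoplasmic reticulum, had fewer tags after tamoxifen at most of its peaks, none of which passed. The TSS peak (chr15:83526715-83526917) held 331, 350.1 and 326 normalised tags after oil and 321, 319 and 331 after tamoxifen (log2 fold change -0.053, SE 0.11, DESeq2 adjusted p = 0.978), and the CpG island peak at 346 bp held 256, 239.9 and 224 normalised tags after oil and 226, 224 and 215 after tamoxifen (log2 fold change -0.11, SE 0.13, DESeq2 adjusted p = 0.932). The groups overlapped at both. Upstream, the peak at -3500 bp (chr15:83523222-83523502) held 75.01, 60.5 and 96.8 normalised tags after oil and 48.3, 49.0 and 65.2 after tamoxifen, and tamoxifen replicate 4 exceeded the lowest oil value (log2 fold change -0.51, SE 0.25, DESeq2 adjusted p = 0.521). Without that library the log2 fold change was -0.67 (DESeq2 adjusted p = 0.205). Its neighbour at -3143 bp held 44.1, 41.0 and 44.8 normalised tags after oil and 30.0, 35.7 and 36.3 after tamoxifen, lower in each tamoxifen library (log2 fold change -0.35, SE 0.30, DESeq2 adjusted p = 0.862). Of the 12 peaks 10 (83.3%, all peaks 50.3%) had a fold change below 0 (median log2 value -0.17), and 1 was lower without overlap (background 9.99%). The window at -3500 bp is shown as the Bik peak with the smallest unadjusted p, and it holds none of the motifs searched.
Bik at -3500 bp (chr15:83523262-83523461, plus strand): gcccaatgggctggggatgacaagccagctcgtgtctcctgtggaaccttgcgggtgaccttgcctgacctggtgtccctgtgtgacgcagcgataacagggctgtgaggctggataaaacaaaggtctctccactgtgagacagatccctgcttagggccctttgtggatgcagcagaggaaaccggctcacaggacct

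Bak1 encodes BAK, which sits on the mitochondrial membrane and forms the pore. Its TSS peak (chr17:27028498-27028705) held 482, 454 and 427 normalised tags after oil and 428, 445 and 412 after tamoxifen, and its intronic peak at 1062 bp held 271, 269 and 237 normalised tags after oil and 239, 248 and 235 after tamoxifen. The groups overlapped at each, with log2 fold changes of -0.085 (SE 0.10, DESeq2 adjusted p = 0.934) and -0.11 (SE 0.13, DESeq2 adjusted p = 0.934). The other 2 peaks were at 3090 and 5096 bp, with log2 fold changes of 0.025 and -0.28.

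The start site peaks differed far more between genes than between treatments. For each gene the strongest peak within 150 bp of a start site was divided by its length. After oil, Mcl1 led with 329 ± 13.3 normalised tags per 100 bp (SD, n = 3). Bcl2l1 followed with 252 ± 19.6, Bid with 234 ± 17.2 and Bak1 with 219 ± 13.1, and these neighbours did not differ beyond their SDs. Bik stood apart at 165 ± 6.24, and Bmf at 124 ± 1.41 and Bcl2 at 119 ± 3.98 were the lowest, within their SDs of each other. After tamoxifen, in the same unit, the levels were 335 ± 28.3 for Mcl1, 249 ± 13.7 for Bcl2l1, 242 ± 8.78 for Bid, 206 ± 7.71 for Bak1, 159 ± 3.11 for Bik, 143 ± 15.3 for Bmf and 149 ± 13.6 for Bcl2. A Bcl2l1 peak outside that window, at 283 bp, reached 331 ± 15.7 after oil, level with Mcl1. Mcl1 had the highest level of these start site peaks in each group, and after tamoxifen the levels of Bik, Bmf and Bcl2 lay within their SDs of a neighbour. The order depends on the division by peak length. Undivided, the Bmf peak (327 bp) held 405 normalised tags after oil and the Bik peak (203 bp) 336, and Bid held 591 and Bcl2l1 559. The deposited tags were capped at 3 per position, which limits the strongest peaks most.

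**Figure D4:**
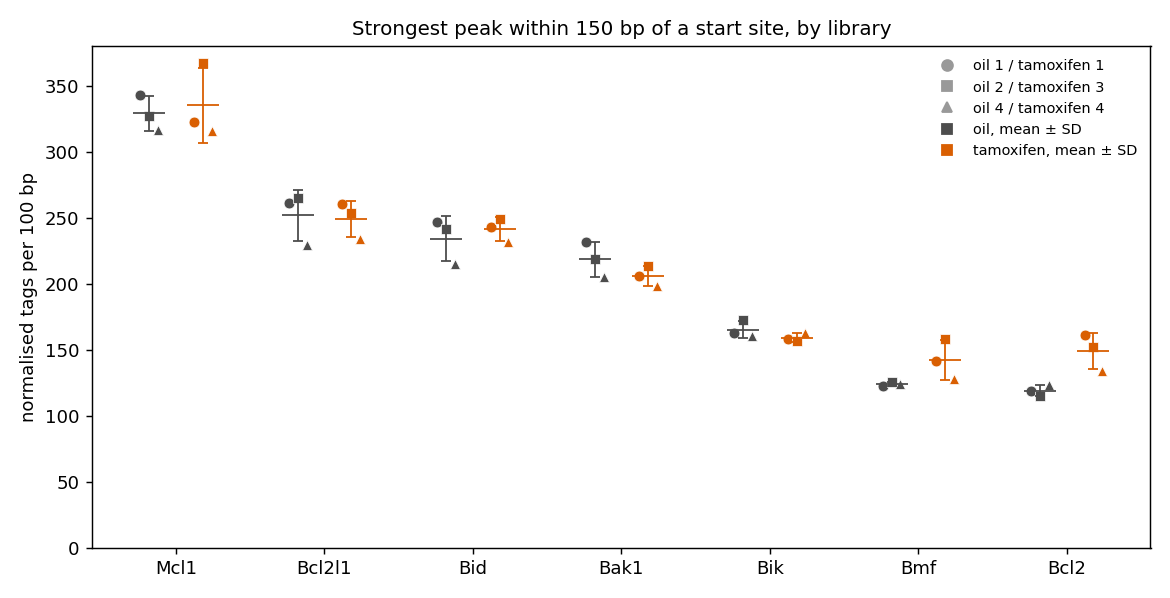
Normalised tags per 100 bp (vertical axis, from 0) of the strongest peak within 150 bp of a start site for the 7 genes with peaks, 1 point per library, with group means and error bars of 1 SD over n = 3 (oil grey, tamoxifen orange). The order from Mcl1 to Bcl2 spans 119 to 329 after oil, and at Bmf and Bcl2 the tamoxifen points lie above the oil points.

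Tags were then summed over all peaks of a gene, which lowers the counting error, and tested with DESeq2 over 19781 genes. None of the 7 member genes passed (0 of 7, background 6.0% of genes), by edgeR also 0, and 1 had an unadjusted p under 0.05 (background 17.8%). That gene was Bik, whose sums of normalised tags were 1009.6, 1012 and 1066 after oil and 920.0, 868 and 991 after tamoxifen. Every tamoxifen sum was below every oil sum (log2 fold change -0.15, SE 0.077, DESeq2 adjusted p = 0.279). The sums of Bcl2l1, at 2705 ± 63.6 with oil and 2569 ± 20.5 with tamoxifen (SD, n = 3 each), and of Bak1, at 791 ± 36.3 with oil and 729 ± 17.98 with tamoxifen (SD, n = 3 each), were also lower without overlap (log2 fold change -0.074, SE 0.054, DESeq2 adjusted p = 0.522 and log2 fold change -0.12, SE 0.081, DESeq2 adjusted p = 0.488). So 3 of the 7 genes were lower without overlap (background 14.2% of genes) and 0 were higher without overlap (background 16.4%).

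The other sums overlapped. Bcl2 summed to 1273 ± 109 with oil and 1377 ± 40.6 with tamoxifen (SD, n = 3 each; log2 fold change 0.11, SE 0.074, DESeq2 adjusted p = 0.460), where oil replicate 4 reached the tamoxifen values. Mcl1 summed to 3569 ± 123 with oil and 3666 ± 261 with tamoxifen (SD, n = 3 each; log2 fold change 0.038, SE 0.061, DESeq2 adjusted p = 0.842), with tamoxifen replicate 3 the highest and tamoxifen replicate 1 the lowest of all 6 libraries. Bmf (log2 fold change -0.018, SE 0.062, DESeq2 adjusted p = 0.936) and Bid (log2 fold change -0.056, SE 0.059, DESeq2 adjusted p = 0.712) lay closest to 0 with Mcl1. The 95% intervals of all 7 genes lay between -0.30 and 0.26 on the log2 scale. By role, the summed normalised tags over member peaks ranged from 7337 to 7533 after oil and 7364 to 7989 after tamoxifen for the guardians, and from 4851 to 4999 and 4772 to 4834 for the BH3-only genes. The median log2 fold change was 0.011 over the 63 guardian peaks, -0.13 over the 50 BH3-only peaks and -0.10 over the 4 Bak1 peaks, beside -0.0013 over all peaks. These medians are descriptions, and peaks of a gene share its locus.

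**Figure D5:**
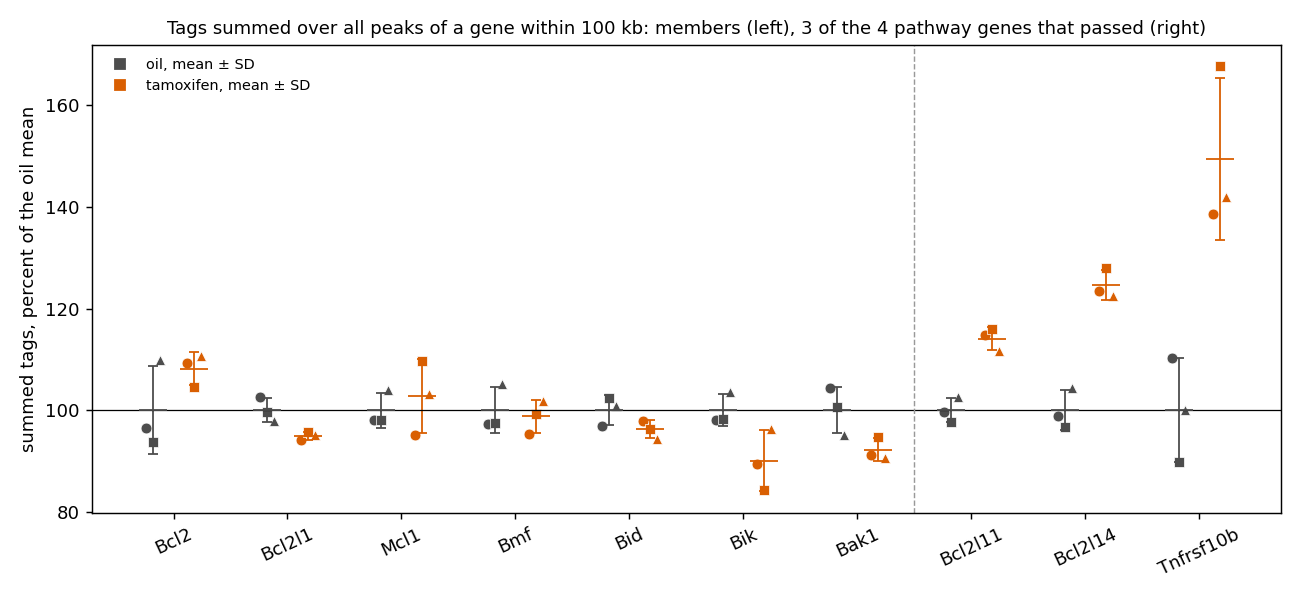
Tags summed over all peaks of a gene within 100 kb of its start site, as percent of the oil mean (vertical axis), 1 point per library with group means and error bars of 1 SD over n = 3 (oil grey, tamoxifen orange). The 7 member genes left of the dashed line stay near 100 and did not pass, and Bcl2l11, Bcl2l14 and Tnfrsf10b right of it are 3 of the 4 pathway genes that passed, namely those that were higher after tamoxifen, while a lower one is not drawn.

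The remaining genes of the death pathway show what the same test found around the members. Of 138 peaks at 14 other Bcl2 family genes, 6 passed with more tags after tamoxifen and 0 with fewer (5 at over 2-fold). Of these, 5 lay upstream of Bcl2l11, which encodes the BH3-only protein BIM, inside introns of a neighbouring transcript. The strongest call, at -64902 bp (chr2:128061022-128061251), held 55.2, 56.6 and 50.2 normalised tags after oil and 129.5, 127 and 98.7 after tamoxifen, and the groups were well apart (log2 fold change 1.13, SE 0.22, DESeq2 adjusted p = 9.14e-05). The peak at -41149 bp held 286, 220.4 and 278 normalised tags after oil and 389.5, 343 and 372 after tamoxifen (log2 fold change 0.50, SE 0.12, DESeq2 adjusted p = 0.00935), and that at -60201 bp held 35.3, 21.5 and 30.5 normalised tags after oil and 58.0, 69.1 and 63.3 after tamoxifen (log2 fold change 1.13, SE 0.29, DESeq2 adjusted p = 0.0138). The other passing peak, at -29407 bp from Bcl2l14, held 58.5, 67.3 and 50.2 normalised tags after oil and 119.9, 152 and 109.9 after tamoxifen (log2 fold change 1.11, SE 0.22, DESeq2 adjusted p = 0.000118). The Bcl2l11 TSS peak itself held 721 ± 25.9 and 714 ± 32.4 normalised tags (SD, n = 3 each; DESeq2 adjusted p = 0.995). On summed tags, Bcl2l11 (log2 fold change 0.19, SE 0.053, DESeq2 adjusted p = 0.00972) and Bcl2l14 (log2 fold change 0.32, SE 0.085, DESeq2 adjusted p = 0.00625) were the 2 of 14 genes that passed, both higher (background 6.0%).

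Among 18 caspase genes and their regulators, 17 had peaks (185, with none at Htra2), of which 1 passed with more tags and 0 with fewer. It lay in an intron of Tnfrsf10b, a death receptor, and held 129, 89.7 and 99.5 normalised tags after oil and 170.1, 222 and 169 after tamoxifen (log2 fold change 0.82, SE 0.18, DESeq2 adjusted p = 0.00142). At an unadjusted p under 0.05 the balance was the other way, with 18 peaks lower (9.73%, background 2.84%) and 4 higher (2.16%, background 6.18%). Without overlap 41 were lower (22.2%, background 9.99%) and 8 higher (4.32%, background 11.8%), and 127 of the 185 fold changes were below 0 (median log2 value -0.12). On summed tags 2 of the 17 genes passed (background 6.0%), 1 higher and 1 lower. The higher one was Tnfrsf10b (log2 fold change 0.58, SE 0.14, DESeq2 adjusted p = 0.00110). The TSS peaks of Bax, Bbc3, Bad, Bcl2l2, Apaf1 and Casp9 did not pass, with log2 fold changes of 0.14, 0.12, 0.069, -0.24, -0.12 and -0.015. Bax encodes the effector related to BAK, and its 5 peaks summed to 872 ± 51.3 with oil and 887 ± 67.0 with tamoxifen (SD, n = 3 each; log2 fold change 0.025, SE 0.084, DESeq2 adjusted p = 0.934).

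The number of passing peaks in these lists (6 of 138 and 1 of 185, background 1.39%) depended on the libraries in the fit. It was 5, 2 and 2 without oil replicate 1, 2 or 4, and 3, 4 and 23 without tamoxifen replicate 1, 3 or 4. All 7 were higher after tamoxifen in the fit of all libraries, whereas the 23 without tamoxifen replicate 4 were 12 higher and 11 lower. The peaks at -64902 bp from Bcl2l11 and at -29407 bp from Bcl2l14 passed in each of those 6 fits, with DESeq2 adjusted p of at most 0.0121 and 0.0318. On summed tags the DESeq2 adjusted p of Bcl2l11, Bcl2l14 and Tnfrsf10b reached up to 0.162, 0.114 and 0.0642. Bcl2l11 and Bcl2l14 no longer passed without oil replicate 1 or 2 or without tamoxifen replicate 1 or 3, and Tnfrsf10b without oil replicate 2 or tamoxifen replicate 3. The edgeR test passed 14 pathway peaks, of which 9 were higher and 5 lower after tamoxifen.

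In position the members resembled other peaks, with a few differences given as descriptions. Introns held 38.5% of the members and 43.2% of all peaks, intergenic DNA 33.3% and 36.4%, and promoters 13.7% and 11.5%. Annotated 3′ UTRs held 8 members (6.84% against 1.55%), 5 of them in Mcl1. Repeats held 16 members (13.7% against 22.5%). The authors called peaks per group, and 87 of the members (74.4%) were in the lists of both groups, 20 in the oil list alone and 10 in the tamoxifen list alone, against 71.4%, 17.4% and 11.2% of all peaks. Of the 50 BH3-only peaks 16 were in the oil list alone, and of the 63 guardian peaks 4.

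Motifs were searched on both strands of the central 200 bp. The AGATAA motif of GATA factors occurred in 21 of 117 (17.9%, all peaks 15.1%), and the RUNX motif TGTGGT, the site of the AML1 part of the fusion protein, in 19 of 117 (16.2%, all peaks 18.7%). The AP-1 motif (TGANTCA) was found in 13 of 117 (11.1%, all peaks 6.61%). ETS (ACAGGAA) occurred in 7 of 117 (5.98%, all peaks 7.95%), NF-kB in 8 of 117 (6.84%, all peaks 5.03%), the heat shock element (GAANNTTC) in 5 of 117 (4.27%, all peaks 3.92%), the IRF motif (GAAANNGAA) in 5 of 117 (4.27%, all peaks 5.13%) and GAS (TTCNNNGAA) in 4 of 117 (3.42%, all peaks 4.85%). IRF and heat shock sites can share a GAA with GAS sites. CRE (TGACGTCA) and the p53 motif occurred in 0 members, with 0.575% and 0.0472% of all peaks holding them. The Bcl2 promoter peak held ETS, and the peak at -2677 bp from the Bcl2 start held GAS, IRF and NF-kB together. The median GC content was 50.5% in members and in all peaks alike. A match is a run of letters in this window and does not show that a factor binds.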

How the data were processed

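The 10 genes, the pathway and marker lists and the motifs were chosen with earlier results of these data known. The authors mapped reads to mm10 with Bowtie2, called peaks with HOMER, merged them and deposited, per the file headers, 1 table of tags per peak and library: estimated counts in steps of 0.5, unnormalised, in which a position counts for no more than 3 tags. The mapping is stated to use default parameters, and how reads with several matches were counted is not described further. Tags were rounded to whole numbers and all peaks were fitted together with DESeq2 1.42.0 in R 4.3.3 at its defaults, although the study fitted distal peaks alone, and that fit is among the alternatives with edgeR 4.0.16. Normalised tags are tags divided by DESeq2 size factors. Gene sums add all peaks within 100000 bp that carry the gene's name. For each member the text names the peak nearest its start site and the peak with the smallest unadjusted p, for the pathway lists at most 4 passing peaks per direction and list and chosen start site peaks. The values of 1 pathway gene are not reported here. Every other peak named was chosen after its values were seen. The script was tested on simulated counts. Motifs and sequences were read from GRCm38.p6 (mm10), on which 0 peaks ran past a chromosome end, and the RefSeq promoter table, where 9 of the 10 genes matched.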

Additional observations from a re-analysis of the deposited data

How the results depend on the processing

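No member peak passed with DESeq2 under other size factors (TMM, total tags in peaks), a minimum mean of 20 tags, no independent filtering, an adjusted p of 0.1 or a limit of 50000 bp. With edgeR 1 passed, and with distal and proximal peaks fitted separately 1, in both cases the Bcl2 start site peak. Leaving out each library in turn gave 0 to 2 passing members, and 0 to 1 at over 2-fold. Pathway peaks passing numbered 7, against 14 with edgeR, 11 at an adjusted p under 0.1, 3 within 50000 bp and 2 to 23 without a library. No member gene passed on summed tags in any setting. Libraries with the same replicate number did not deviate together (correlations of -0.046 for number 1 and 0.058 for number 4). The labels do not say whether the numbers pair libraries, and such correlations cannot settle how libraries were handled. A replicate block on numbers 1 and 4, which keeps 4 libraries, passed 0 member peaks and 0 pathway peaks, and 52 peaks in all. Start site peaks near 0 changed sign. The log2 fold change of Bcl2l1 at 1 bp ran from -0.079 to 0.022 over the fits without a library (0.013 without oil replicate 1), that of Mcl1 at 27 bp from -0.044 to 0.069 (-0.0021 without oil replicate 4, and -0.051 with the replicate block) and that of Bid at -17 bp from -0.017 to 0.083. The cause was not tested. Of the other values for single peaks 134 kept their direction and were not called. Some of these had no adjusted p, as for the Bmf peaks at -11 and 7955 bp in several fits, so there the threshold was not applied. The libraries held medians of 57.5 to 81 tags per member peak, and what differences this depth could show was not tested.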
